A study of Mus musculus with 9 samples.

Results

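A list of 10 genes of chondrocyte hypertrophy and mineralization was examined in mouse chondrocytes grown on stiff or soft ECM or belonging to a group labelled normal. The genes were Mef2c, Runx2, Sp7, Ihh, Col10a1, Panx3, Alpl, Phospho1, Ibsp and Spp1. Each gene was taken by its symbol, and where it had several probes the probe with the highest mean log2 intensity over the 9 samples was used. The array measured 19084 named genes. Of the 10 on the list 8 had a probe and 2, Runx2 and Spp1, had no probe listed in the annotation used here, so they were not analysed here. All 8 were above 0 in every sample and were tested among the 24942 tested probes of 26423 on the array. Mef2c had 2 probes and the other 7 genes had 1 probe each.

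The cells were primary chondrocytes released by collagenase from the knee articular cartilage of newborn Kunming mice, with no genetic change or drug in any group. The stiff ECM was a polyacrylamide gel of 100 kPa and the soft ECM one of 500 Pa, both coated with type I collagen, and the sources used here do not give the substrate of the normal group. Each group had 3 samples, and the labels give 24 h in all groups while a figure legend of the study gives a longer time. The sources do not say whether the samples were separate cultures or animals, so p-values measure the spread between these samples, which may be technical.

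In the growth plate, chondrocytes stop dividing, enlarge and let their matrix calcify before bone replaces it. Mef2c and Runx2 are transcription factors that switch the hypertrophic program on, Sp7 acts later and is required for bone formation, and Ihh is the signal that prehypertrophic cells send to their neighbours. Col10a1 is the collagen made by hypertrophic cells, Alpl and Phospho1 release phosphate for mineral, and Ibsp and Spp1 are acidic proteins of mineralized matrix. Healthy articular cartilage holds this program back over most of its depth, and hypertrophic genes are known to appear in osteoarthritis.

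The values were single-colour array intensities, and they were compared as log2 intensities in limma with adjustment over all tested probes. The level of a probe was gauged by 465 probes for olfactory receptors, a family used by sensory neurons of the nose. The median intensity of a sample was 166 to 175 on the stiff ECM, 137 to 150 on the soft ECM and 124 to 179 in normal samples. The median olfactory probe was at 36.4 to 41.5 on the stiff ECM, 18.3 to 28.4 on the soft ECM and 10.3 to 34.8 in normal samples, so dim probes were higher on the stiff ECM as a whole. Over all tested probes the median log2 fold change was 0.18 for stiff minus soft, 0.087 for stiff minus normal and -0.089 for soft minus normal. Changes of single genes are read against these medians. Col2a1, the main collagen of cartilage, averaged 3889 ± 333 on the stiff ECM, 3612 ± 332 on the soft ECM and 9673 ± 1236 in normal samples (SD, n = 3 each). Its probe was brighter than 99.8% of the olfactory probes, so the cartilage marker was present in all 3 groups.

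Of the 8 measured genes, 1 passed the test in any comparison. Mef2c was lower on the stiff ECM than in the normal samples. Panx3 was the gene with the smallest p between the stiff and the soft ECM, and it missed the threshold. Col10a1 and Ibsp were no brighter than much of the olfactory set, and Sp7, Alpl and Phospho1 overlapped between all groups.

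**Figure D1:**
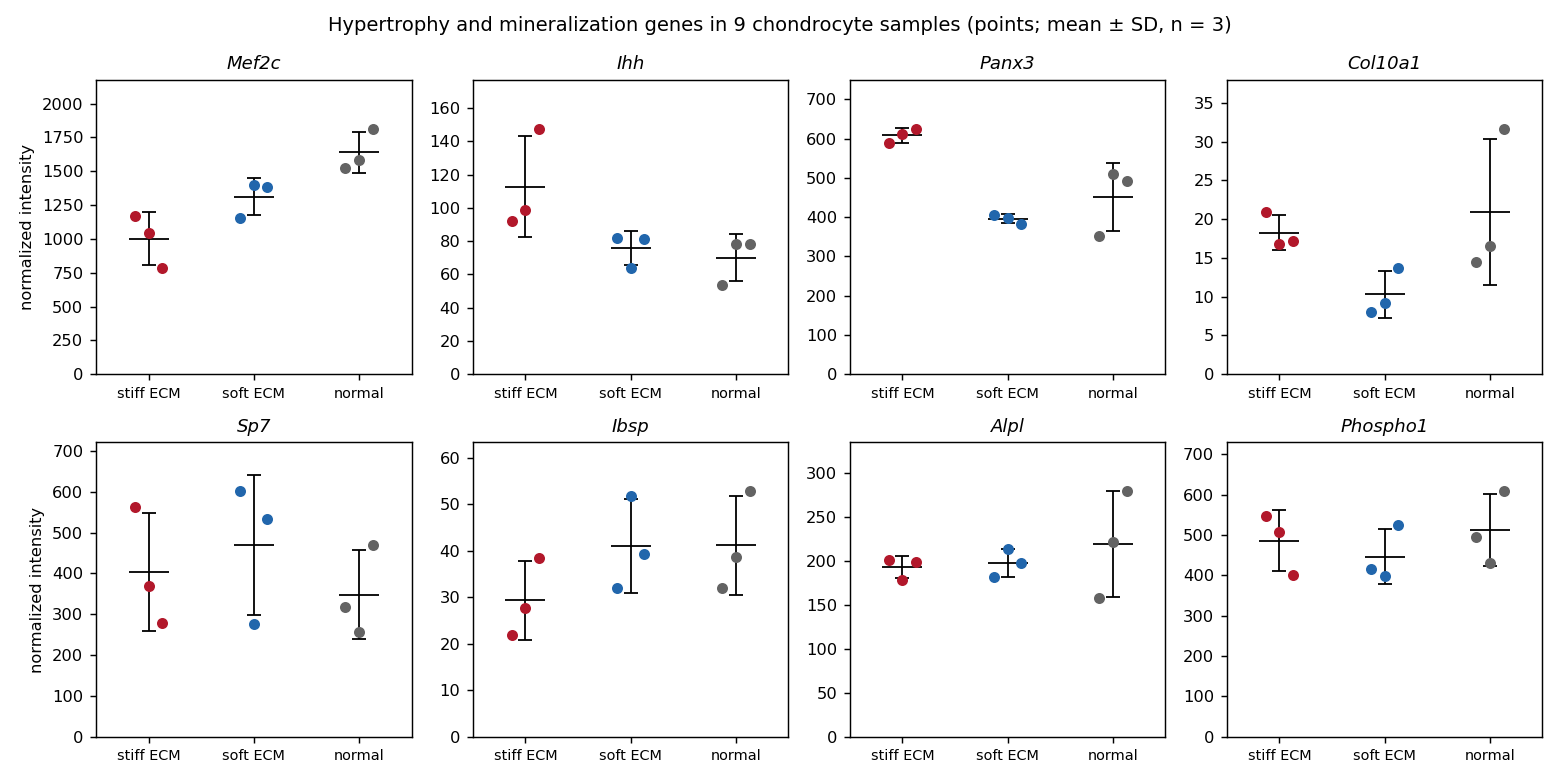
Normalized intensity (linear axis from 0) of the 8 measured genes in each of 9 samples, with stiff ECM, soft ECM and normal from left to right in each panel. Points are samples and black bars are the mean ± SD (n = 3). The 3 stiff ECM samples of Panx3, at 588 to 625, lie above all soft ECM and normal samples, and those of Mef2c, at 788 to 1169, lie below all normal samples.

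The 8 probes differed in how far they stood above the olfactory receptor probes. Mef2c was brighter than 99.8% of them, Panx3 and Phospho1 than 98.3% each, and Sp7 than 97.0%. These 4 were above the 95th percentile of the olfactory probes, an intensity of 309. Alpl was brighter than 88.2% and Ihh than 68.2%. Ibsp was brighter than 46.0% and Col10a1 than 31.0%, so many olfactory probes gave a signal as strong as these. For Col10a1, Ibsp and Ihh the signal was therefore not separated from that of genes these cells should not use, and their differences have to be read with the rise of dim probes on the stiff ECM in mind. Alpl was also below the 95th percentile, so its signal was separated only in part.

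**Figure D2:**
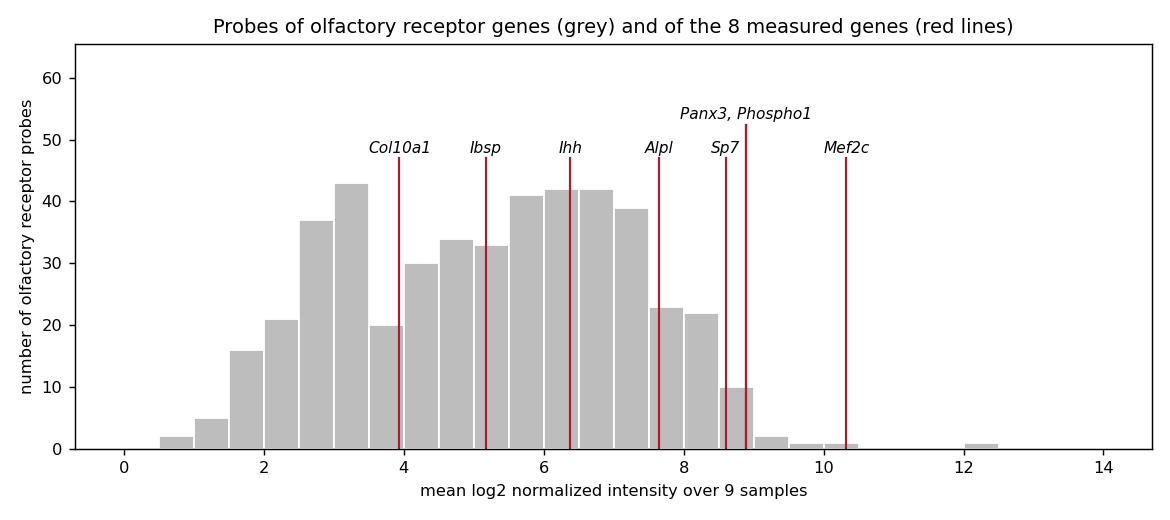
Number of olfactory receptor probes (grey bars, vertical axis) by mean log2 normalized intensity over 9 samples (horizontal axis), with a red line at the mean log2 intensity of each of the 8 measured genes. The lines of Col10a1, Ibsp and Ihh fall inside the bulk of the grey bars, and those of Mef2c, Panx3, Phospho1 and Sp7 fall in the upper tail.

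Between the stiff and the soft ECM, none of the 8 genes passed the adjusted threshold in limma. Over all probes 1.77% passed in this comparison, 1.35% on the high side and 0.417% on the low side. At an unadjusted p under 0.05 there were 4 of 8 (Panx3, Mef2c, Ihh and Col10a1), against 21.6% of all probes. The groups did not overlap in 3 of 8 genes, Panx3, Ihh and Col10a1, all higher on the stiff ECM, where 38.1% of all probes did not overlap 31.7% on the high side and 6.39% on the low side. A log2 fold change above 0 was found in 4 of 8 genes and in 70.6% of all probes, and the median of the 8 was 0.043, against 0.18 for all probes.

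Between the stiff ECM and the normal samples, 1 of 8 genes passed, Mef2c, which was lower. Over all probes 9.94% passed, 5.14% on the low side and 4.80% on the high side. At an unadjusted p under 0.05 there were 3 of 8 (Mef2c, Panx3 and Ihh), against 30.0% of all probes. The groups did not overlap in 3 of 8 genes, with Panx3 and Ihh higher and Mef2c lower on the stiff ECM, and 33.9% of all probes did not overlap, 19.3% on the high and 14.6% on the low side. A log2 fold change above 0 was found in 3 of 8 genes and in 57.7% of all probes, and the median of the 8 was -0.093, against 0.087 for all probes.

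Between the soft ECM and the normal samples, none of the 8 passed, against 3.70% of all probes (0.493% higher and 3.21% lower), and 1 of 8 (Col10a1) had an unadjusted p under 0.05 in limma, against 19.9%. Col10a1 and Mef2c did not overlap, and both were lower on the soft ECM. For all probes 23.5% did not overlap, 18.3% on the low side and 5.26% on the high side. A log2 fold change above 0 was found in 2 of 8 genes and in 38.3% of all probes, and the median of the 8 was -0.14, against -0.089 for all probes. The normal samples serve as the reference in both comparisons against them, so those comparisons are not independent.

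**Figure D3:**
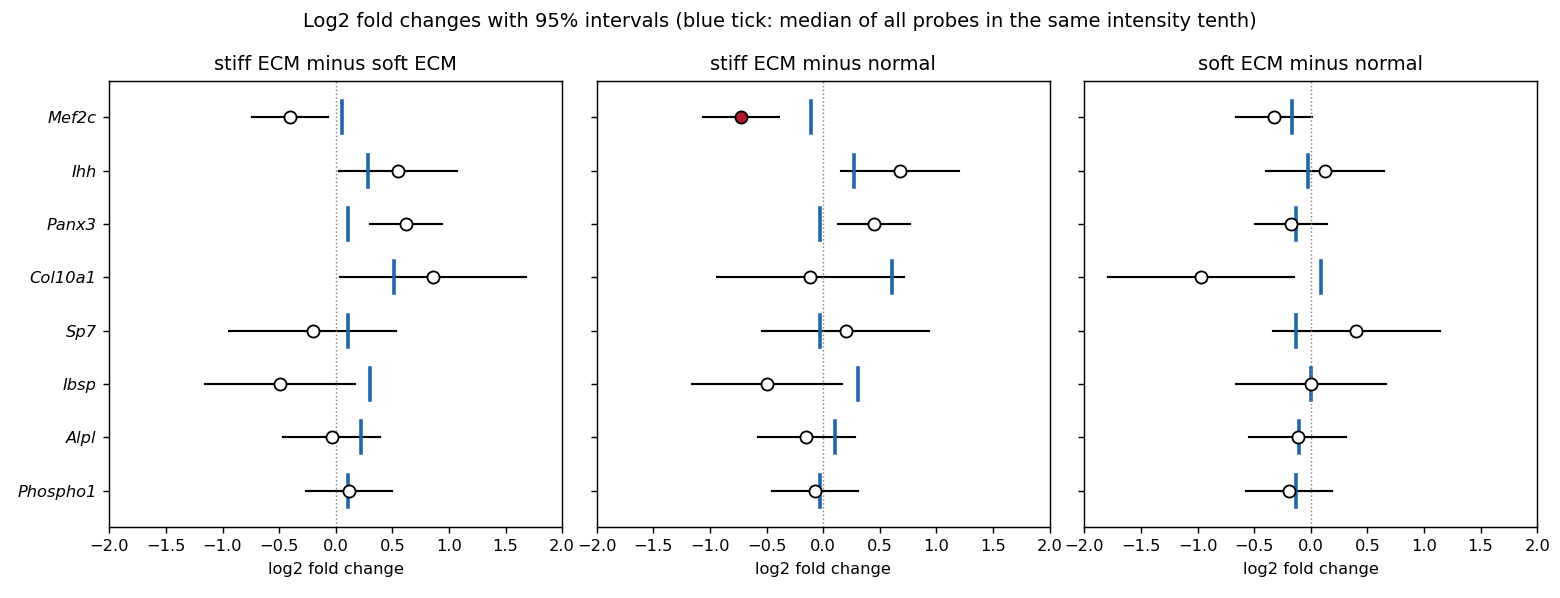
Log2 fold change of each gene (points) with its 95% interval (black line) in 3 comparisons, with a blue tick at the median of all probes of like intensity. The filled point is the gene that passed, Mef2c for stiff ECM minus normal at -0.73, and the intervals of Col10a1, Sp7 and Ibsp are more than 1.3 log2 units wide in every comparison.

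Mef2c is the transcription factor at the head of the program. Its intensity was 1169, 1046 and 788 on the stiff ECM, 1154, 1399 and 1381 on the soft ECM, and 1527, 1582 and 1814 in the normal samples. The stiff ECM samples were lowest and the normal samples highest, with 1 stiff sample, replicate 1, inside the range of the soft ECM. The means were 1001 ± 194 on the stiff ECM, 1311 ± 137 on the soft ECM and 1641 ± 152 in normal samples (SD, n = 3 each). Stiff minus normal was -0.73 on the log2 scale (SE 0.15, adjusted p = 0.0184 in limma), and the median of probes of like intensity was -0.11. Stiff minus soft was -0.40 (SE 0.15, adjusted p = 0.166) and soft minus normal -0.33 (SE 0.15, adjusted p = 0.261), so neither neighbouring pair in this order differed past the threshold.

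The other Mef2c probe gave the same order. Its intensity was 734, 708 and 677 on the stiff ECM, 1069, 921 and 832 on the soft ECM, and 893, 1387 and 1272 in the normal samples. All 3 stiff ECM samples lay below all 6 others, while the soft ECM and normal samples overlapped. Stiff minus normal was -0.72 on this probe (SE 0.16, adjusted p = 0.0236 in limma) and stiff minus soft -0.41 (adjusted p = 0.186). The 2 probes measure the same RNA samples and are not separate evidence.

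The fall of Mef2c on the stiff ECM against normal kept its sign in all 19 alternatives and passed in 15, with log2 fold changes between -0.88 and -0.57. It no longer passed without stiff replicate 2 (adjusted p = 0.0549 in limma), without stiff replicate 3 (0.0529) or without normal replicate 2 (0.0509), nor by the methods' t-test (0.173). The difference between the stiff and the soft ECM passed with quantile (-0.48, adjusted p = 0.0448) and with median scaling (-0.65, adjusted p = 0.0311).

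Mef2c is also a transcription factor of muscle, and markers of skeletal muscle moved with it. All 13 listed markers were measured and none was at or below 0. Their summed intensity was 134186 to 144275 on the stiff ECM, 165400 to 181534 on the soft ECM and 176484 to 200589 in normal samples. On the stiff ECM all 13 had a log2 fold change below 0 against normal. Of these 10 passed as lower in limma, Ckm at -1.21 and Myod1 at -0.63 among them, where 5.14% of all probes passed on the low side. Against the soft ECM 2 of 13 passed as lower, Tnnc2 and Ckm, where 0.417% of all probes passed on the low side. Against normal the count was 4 without stiff replicate 3, 5 without stiff replicate 2, 5 without normal replicate 2 and 0 by the methods' t-test. Against the soft ECM it was 0 without stiff replicate 2, soft replicate 1 or soft replicate 3, 1 without stiff replicate 1 or 3, soft replicate 2 or normal replicate 2, and 7 without normal replicate 1. It was 7 with quantile, 10 with median and 7 with loess scaling, 6 in the upper 50% of probes by intensity, 5 with only the 2 groups in the fit and 1 by the methods' t-test. The part of muscle RNA in the Mef2c difference was not tested, and in bulk RNA fewer cells of a type and less RNA per cell cannot be told apart.

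Panx3 encodes a pannexin channel of prehypertrophic chondrocytes and osteoblasts. Its intensity was 588, 611 and 625 on the stiff ECM, 406, 397 and 383 on the soft ECM, and 352, 511 and 491 in the normal samples. All 3 stiff ECM samples were above the 6 others, and the soft ECM samples lay within the range of the normal samples. The means were 608 ± 18.5 on the stiff ECM, 395 ± 11.3 on the soft ECM and 451 ± 86.3 in normal samples (SD, n = 3 each). The stiff ECM was 1.54-fold higher than the soft ECM, a log2 fold change of 0.62 (SE 0.14, 95% interval 0.30 to 0.94), with an unadjusted p of 0.00128 and an adjusted p of 0.0549 in limma. Probes of like intensity had a median of 0.11.

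Against normal, Panx3 had a log2 fold change of 0.45 on the stiff ECM (SE 0.14, adjusted p = 0.0713 in limma) and -0.17 on the soft ECM (SE 0.14, adjusted p = 0.550). The stiff minus soft difference lay close to the threshold, and it passed in 8 of 18 alternatives with adjusted p-values from 0.0129 to 0.220. It passed when normal replicate 1, a sample outside this comparison, was left out (adjusted p = 0.0129 in limma), which is the normal sample at 352, and also without normal replicate 3 (0.0467). Among the scalings it passed after quantile normalization (0.51, adjusted p = 0.0448) and loess normalization (0.49, adjusted p = 0.0499), and its fold change was 0.37 after median centring, where it did not pass. Stiff minus normal passed after quantile (0.0296) and loess normalization (0.0288) and without normal replicate 3 (0.0486).

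Ihh is the hedgehog ligand of prehypertrophic cells. Its intensity was 92.0, 98.9 and 148 on the stiff ECM, 82.2, 64.1 and 81.4 on the soft ECM, and 53.7, 78.4 and 78.1 in the normal samples. The 3 stiff ECM samples were above the 6 others, replicate 3 by the most, and the soft ECM and normal samples overlapped. Compared with the soft ECM, the stiff ECM was higher by 0.55 on the log2 scale (SE 0.24, adjusted p = 0.212 in limma) and stiff minus normal 0.68 (SE 0.24, adjusted p = 0.0903). Probes of like intensity had medians of 0.28 and 0.27 in the same comparisons. After loess normalization Ihh was 0.26 higher than on the soft ECM and 0.41 higher than in the normal samples, and it passed in no alternative.

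Ihh acts through the receptor gene Ptch1 and the Gli factors, and is held in check by Pthlh, whose receptor is Pth1r. Of this loop 8 genes were measured, and Pthlh was not analysed here. In the comparison of stiff with soft ECM 0 of 8 passed in limma, 2 having an unadjusted p under 0.05 (21.6% of all probes did), and the median of the 8 was 0.079. Against normal, 1 of 8 fell on the stiff ECM, where 9.94% of all probes passed, and 0 of 8 passed on the soft ECM, where 2 had an unadjusted p under 0.05 (19.9% of all probes did). The gene that fell was Pth1r. Its intensity was 627, 461 and 587 on the stiff ECM, 727, 757 and 715 on the soft ECM and 872, 831 and 787 in the normal samples, with no overlap between any of the 3 groups. Stiff minus normal was -0.58 (SE 0.13, adjusted p = 0.0215 in limma). This call was lost without stiff replicate 2 (-0.45, adjusted p = 0.0794), stiff replicate 3 (0.0514) or normal replicate 2 (0.0655), with only the groups compared in the fit (0.0562) and by the methods' t-test (0.168). Gli2, a bright probe and a transcription factor of the pathway, averaged 1144 ± 28.4 on the stiff ECM, 1046 ± 88.0 on the soft ECM and 805 ± 245 in normal samples (SD, n = 3 each), a log2 fold change of 0.55 for stiff minus normal (SE 0.19, adjusted p = 0.0831 in limma). It passed as higher in stiff minus normal with quantile, median and loess scaling, and in soft minus normal with median scaling, where Gli3 also passed as lower in stiff minus normal. Gli1, a direct target of the pathway, averaged 20.7 ± 9.0 on the stiff ECM, 9.67 ± 1.18 on the soft ECM and 13.9 ± 4.01 in normal samples, and its probe was brighter than only 29.5% of the olfactory probes.

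Col10a1 is the classical marker of hypertrophic chondrocytes. Its intensity was 20.9, 16.8 and 17.1 on the stiff ECM, 8.02, 9.16 and 13.7 on the soft ECM, and 14.5, 16.6 and 31.7 in the normal samples. The soft ECM samples were below the 6 others, and the stiff ECM samples fell within the range of the normal samples. Stiff minus soft was 0.86 on the log2 scale (SE 0.37, adjusted p = 0.216 in limma), where probes of like intensity had a median of 0.51. Soft minus normal was -0.97 (SE 0.37, adjusted p = 0.180) and stiff minus normal -0.11 (SE 0.37, adjusted p = 0.863). Soft minus normal passed after quantile normalization (-1.14, adjusted p = 0.0455) and in no other alternative. Without normal replicate 3, the sample at 31.7, stiff minus normal was 0.23. The Col10a1 probe was at the level of the olfactory probes in all 3 groups.

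Sp7, or osterix, is required for osteoblasts and acts in late hypertrophic cells. Its intensity was 562, 369 and 279 on the stiff ECM, 600, 276 and 533 on the soft ECM, and 318, 256 and 470 in the normal samples. The 3 groups overlapped, and the samples within each group differed by more than the group means did. The within-group SD was 0.52 on the log2 scale, larger than that of 98.7% of the probes of like intensity, whose median was 0.18. For Sp7 stiff minus soft was -0.20 (SE 0.33, 95% interval -0.94 to 0.53), stiff minus normal 0.20 (SE 0.33) and soft minus normal 0.40 (SE 0.33, adjusted p = 0.546 in limma). The interval for stiff minus soft allows a change of nearly 1 log2 unit downwards.

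Alpl is the alkaline phosphatase that breaks down pyrophosphate. Its intensity was 201, 178 and 199 on the stiff ECM, 181, 214 and 197 on the soft ECM, and 158, 221 and 279 in the normal samples. The stiff and soft ECM samples lay inside the range of the normal ones. Stiff minus soft was -0.034 on the log2 scale (SE 0.19, 95% interval -0.46 to 0.39, adjusted p = 0.929 in limma), stiff minus normal -0.15 and soft minus normal -0.12. The normal samples varied more, with an SD of 60.3, against 12.8 on the stiff and 16.2 on the soft ECM. The Alpl probe was brighter than 88.2% of the olfactory probes but below their 95th percentile, so background limits its small differences as well.

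Phospho1 is the phosphatase that frees phosphate inside matrix vesicles. Its intensity was 547, 507 and 401 on the stiff ECM, 417, 398 and 524 on the soft ECM, and 495, 432 and 608 in the normal samples, so all groups overlapped. The difference of stiff minus soft was 0.12 on the log2 scale (SE 0.17, 95% interval -0.26 to 0.50, adjusted p = 0.697 in limma), close to the 0.11 of probes of like intensity. The sign turned in all 3 scalings, to -0.015 with quantile, -0.13 with median and -0.012 with loess scaling. Stiff minus normal was -0.074 and soft minus normal -0.19.

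Ibsp, or bone sialoprotein, is made by osteoblasts and hypertrophic chondrocytes. Its intensity was 21.8, 27.7 and 38.5 on the stiff ECM, 32.1, 51.9 and 39.2 on the soft ECM, and 32.0, 38.7 and 52.8 in the normal samples. The stiff ECM samples lay lowest, but the highest of them was inside the range of both other groups. Stiff minus soft and stiff minus normal were both -0.50 on the log2 scale (SE 0.30, adjusted p = 0.351 and 0.290 in limma), while probes of like intensity had medians of 0.31 and 0.30. Soft minus normal was -0.0011. Stiff minus normal passed after quantile normalization (-1.03, adjusted p = 0.0414) and loess normalization (-0.86, adjusted p = 0.0465). It did not pass with the values as deposited or after median centring (-0.65).

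**Figure D4:**
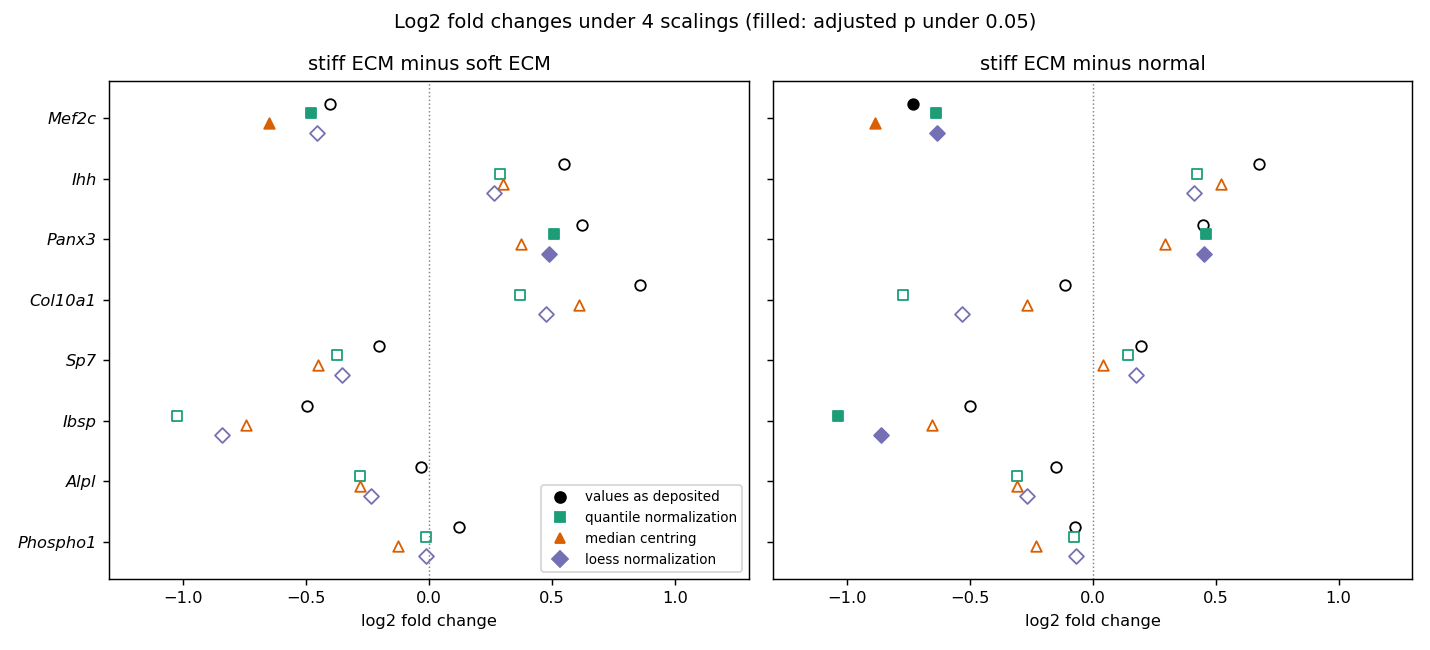
Log2 fold change of each gene for stiff ECM minus soft ECM (left) and stiff ECM minus normal (right) with the values as deposited (circles) and with quantile (squares), median (triangles) and loess (diamonds) scaling. Filled symbols have an adjusted p under 0.05. Mef2c stays below 0 and Panx3 and Ihh above 0 in both panels, Ibsp moves to -1.03 in both after quantile normalization, and Phospho1 changes sign on the left.

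The factors that act beside Mef2c and Runx2 were described by 14 measured genes, and Mef2a was not analysed here. None passed between the stiff and the soft ECM in limma, with 1 at an unadjusted p under 0.05, against 21.6% of all probes. In each comparison against normal 1 of 14 fell, where 9.94% of all probes passed for the stiff and 3.70% for the soft ECM. For stiff minus normal the count was 3 with quantile or loess scaling (Hdac4, Dlx5 and Fgfr3) and 5 with median scaling (Runx1, Mef2d, Hdac4, Dlx5 and Fgfr3), all lower. The gene in both comparisons was Hdac4, a histone deacetylase that binds and represses Mef2c and Runx2 in chondrocytes. Its intensity was 1316, 1110 and 1106 on the stiff ECM, 1382, 1284 and 1476 on the soft ECM, and 2196, 1735 and 2138 in the normal samples. The normal samples were above all 6 others, and the stiff and soft ECM overlapped. Stiff minus normal was -0.78 (SE 0.12, adjusted p = 0.00676 in limma), which was lost only by the methods' t-test (0.115) among the alternatives run. Soft minus normal was -0.55 (SE 0.12, adjusted p = 0.0367), a call that did not hold without any one of the 3 soft or 3 normal samples (adjusted p from 0.0539 to 0.116), without stiff replicate 2 (0.0603), or under quantile (0.0599), median (0.128) and loess scaling (0.0536). This call was also lost with only the 2 groups in the fit (0.0564) and by the methods' t-test (0.177). Mef2c and its repressor Hdac4 were thus both lower on the stiff ECM than in normal samples.

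Of 10 genes that handle phosphate and pyrophosphate 9 had a probe, and Enpp1 had none listed. Mgp, or matrix Gla protein, an inhibitor of cartilage calcification, was the 1 of 9 that passed, in the comparisons of the stiff ECM with the soft ECM and with normal, where 1.77% and 9.94% of all probes passed. Its intensity was 7738, 7657 and 7153 on the stiff ECM, 9965, 11088 and 9462 on the soft ECM, and 11716, 12374 and 13119.5 in the normal samples, with no overlap between the 3 groups. Stiff minus normal was -0.72 (SE 0.091, adjusted p = 0.00286 in limma), lost only by the methods' t-test (0.0616), and stiff minus soft was -0.43 (SE 0.091, adjusted p = 0.0424). The second of these did not pass without any one of the stiff or soft samples (adjusted p from 0.0871 to 0.191) or without normal replicate 2 (0.0801). It held under quantile, median and loess scaling but was lost by the methods' t-test (0.0704). Beside Mgp, Slc20a1 passed as higher than on the soft ECM with quantile scaling, Slc20a2 as higher than normal with quantile and loess scaling, and Nt5e as lower than in both with median scaling. The median of the 9 genes was 0.054 for stiff minus soft, 0.073 for stiff minus normal and -0.099 for soft minus normal.

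The 10 listed genes of cartilage remodelling, all with a probe, are known for their part where hypertrophic matrix is removed and vessels grow in. Vegfa, the vessel growth factor, was the 1 of 10 that passed, between the stiff and the soft ECM and between the soft ECM and normal, where 1.77% and 3.70% of all probes passed. Itgav passed as higher on the stiff ECM than in both other groups with quantile and loess scaling, and Tnfsf11 as lower than in both with median scaling. The intensity of Vegfa was 25253, 28277 and 24214 on the stiff ECM, 17205, 20553 and 17670 on the soft ECM, and 25263, 25245 and 26775 in the normal samples. The soft ECM samples were below all others. Stiff minus soft was 0.49 (SE 0.097, adjusted p = 0.0377 in limma) and soft minus normal -0.48 (SE 0.097, adjusted p = 0.0245). Stiff minus soft did not pass after median centring (0.24, adjusted p = 0.311), without any 1 of the 3 stiff samples (0.0676 to 0.194), without soft replicate 1 (0.105) or 3 (0.110) or without normal replicate 2 (0.0669). Soft minus normal did not pass under median centring (0.150), quantile (0.0611) or loess scaling (0.0626), or without soft replicate 1 (0.0685), soft replicate 3 (0.0933), normal replicate 2 (0.0796) or normal replicate 3 (0.0607). By the methods' t-test Vegfa passed neither for stiff minus soft (0.0900) nor for soft minus normal (0.136). Mmp13, the collagenase of hypertrophic cartilage, was bright in all groups, at 31267 ± 5543 on the stiff ECM, 35714 ± 10595 on the soft ECM and 31483 ± 5882 in normal samples (SD, n = 3 each), and did not pass in any comparison.

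**Figure D5:**
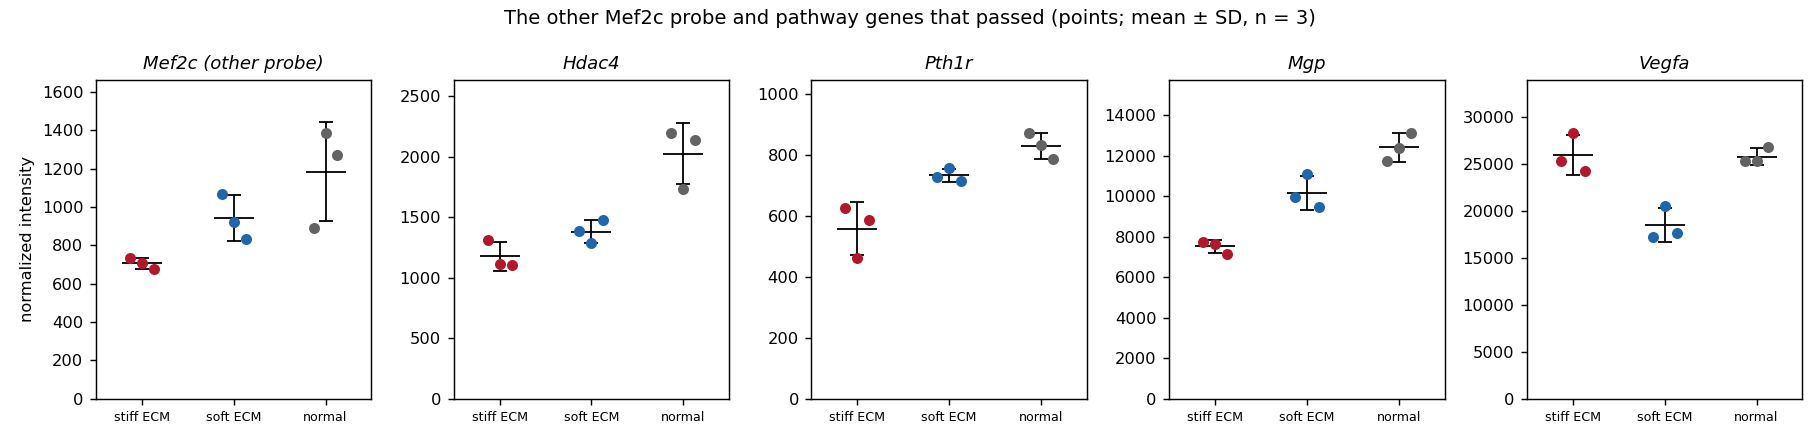
Normalized intensity (linear axis from 0) of the other Mef2c probe and of Hdac4, Pth1r, Mgp and Vegfa in each of 9 samples, with stiff ECM, soft ECM and normal from left to right. Points are samples and black bars are the mean ± SD (n = 3). Mgp lies at 7153 to 7738 on the stiff ECM, below all other samples, and Vegfa at 17205 to 20553 on the soft ECM, below all other samples.

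Of 12 bone matrix and osteocyte genes 11 had a probe and 10 were tested, since Bglap, or osteocalcin, was at or below 0 in some samples. None passed between the stiff and the soft ECM in limma, with 3 of 10 at an unadjusted p under 0.05 (21.6% of all probes). Against normal 1 of 10 passed on the stiff ECM and 2 of 10 on the soft ECM, where 9.94% and 3.70% of all probes passed. Col1a2, a chain of type I collagen, fell on both gels against normal, by 0.68 on the stiff ECM (adjusted p = 0.00593) and by 0.62 on the soft ECM (adjusted p = 0.0131). Both calls were lost by the methods' t-test (0.0925 on the stiff and 0.122 on the soft ECM), and the soft ECM call also without soft replicate 3 (0.0536) or normal replicate 2 (0.0505) and after median centring (0.0767). Tnfrsf11b, or osteoprotegerin, averaged 2755 ± 228 on the stiff ECM, 2032 ± 98.5 on the soft ECM and 2948 ± 214 in normal samples (SD, n = 3 each), and fell by 0.54 in soft minus normal (adjusted p = 0.0193 in limma). This call was lost without soft replicate 2 (0.0659), soft replicate 3 (0.0607), normal replicate 2 (0.0595) or normal replicate 3 (0.0511), after median centring (0.0676) and by the methods' t-test (0.104). Stiff minus soft was 0.44 for Tnfrsf11b (SE 0.10, adjusted p = 0.0539 in limma), with all stiff ECM samples above all soft ECM samples. It passed with quantile (0.0140) and loess scaling (0.0140), in the upper 50% of probes (0.0378), with a floor (0.0483), an offset (0.0480) or only the 2 groups (0.0386), and without normal replicate 1 (0.0353) or 3 (0.0439), while it was 0.19 with median scaling (0.335). Of the defining osteoblast markers, Bglap averaged -0.37 on the stiff ECM, 0.010 on the soft ECM and 0.27 in normal samples. Ifitm5, Dmp1, Mepe and Phex were brighter than 51.6% to 59.1% of the olfactory probes.

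The remaining lists bear on which cells gave these signals. In limma 1.77% of all probes passed for stiff minus soft, 9.94% for stiff minus normal and 3.70% for soft minus normal. By the methods' t-test none of the markers below passed against normal. The summed intensity of 15 chondrocyte markers was 8891 to 10092 on the stiff ECM, 8177 to 9477 on the soft ECM and 16477 to 18306 in normal samples. On the stiff ECM 3 of 15 fell against normal (Col2a1, Col9a1 and Col11a1), 1 without stiff replicate 2 or normal replicate 2. On the soft ECM 2 of 15 fell against normal (Col2a1 and Col11a1), and 2 to 3 did with 1 sample left out. Against normal 4 of the 15 had a log2 fold change above 0 on the stiff ECM and 4 on the soft ECM. Col9a1 passed as lower on the stiff than on the soft ECM with quantile, median and loess scaling and with only the 2 groups. The sum of the 7 osteoblast markers with a probe was 3380 to 3599 on the stiff ECM, 2867 to 3728 on the soft ECM and 6614 to 7525 in normal samples. Cthrc1 made up most of it, at 3175 ± 116 on the stiff ECM, 2918 ± 488 on the soft ECM and 6720 ± 493 in normal samples (SD, n = 3 each). Only Cthrc1 passed against normal in limma, as lower on both gels. Of the 6 tested osteoblast markers 5 had a log2 fold change above 0 on the stiff ECM against normal and 4 on the soft ECM. Among 8 fibroblast markers 3, Col3a1, Col1a2 and Thy1, passed as lower on both gels than in normal samples in limma, so Col1a2 fell together with Col3a1 and Thy1. Against normal 2 of the 8 had a log2 fold change above 0 on the stiff ECM and 3 on the soft ECM. Dpt passed as higher on the soft ECM than in normal samples with quantile and loess scaling. The sum of the 8 was 132890 to 134522 on the stiff ECM, 137922 to 142210 on the soft ECM and 138498 to 168489 in normal samples. Of 6 adipocyte markers 1, Adipoq, was higher on both gels than in normal samples. Against normal 4 of the 6 had a log2 fold change above 0 on the stiff ECM and 6 on the soft ECM. Fabp4 passed as higher on both gels than in normal samples with quantile and loess scaling. Plin1 passed as higher on the soft ECM than in normal samples with quantile, median and loess scaling, and as lower on the stiff than on the soft ECM with each of these. Of 11 macrophage markers 2, Lyz1 and Itgam, were higher on the stiff ECM than on the soft ECM and in normal samples. Against normal 6 of the 11 had a log2 fold change below 0 on the stiff ECM, and 2 passed as lower with quantile and loess scaling (Adgre1 and C1qa) and with median scaling (Cd68 and Adgre1). Of 7 osteoclast markers 1, Dcstamp, was higher on the stiff ECM than in normal samples, and 4 of the 7 had a log2 fold change below 0. The Dcstamp probe was dim, brighter than 41.3% of the olfactory probes, and did not pass with only the 2 groups in the fit. Acp5 and Ctsk, both bright, passed as lower on the stiff ECM than in both other groups with median scaling. With quantile scaling Ctsk also passed as lower than on the soft ECM. Between the stiff and the soft ECM, Oscar passed as higher in the upper 50% of probes, with a floor, with only the 2 groups and by the methods' t-test. Dcstamp passed as higher there with only the 2 groups and by the methods' t-test. With the values as deposited 0 of 7 endothelial markers passed in any comparison in limma. At an unadjusted p under 0.05 there was 1 for stiff minus soft (21.6% of all probes) and 1 for stiff minus normal (30.0%), where all 7 had a log2 fold change above 0. Kdr passed as higher on the stiff than on the soft ECM with only the 2 groups in the fit and by the methods' t-test. The part of these cell types in the differences against normal was not tested.

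For the 3 genes with the smallest p over the 3 groups, Mef2c, Panx3 and Ihh, the genes most like them in log2 intensity over the 9 samples were looked up. The moderated F test of limma gave adjusted p-values of 0.0337 for Mef2c, 0.0439 for Panx3 and 0.134 for Ihh. Mef2c was most like Pkig, an inhibitor of protein kinase A (Pearson's r = 0.981), Stx5a (0.970), Babam2 (0.968) and Serhl (0.968). Panx3 was most like Rif1 (0.975), Prdm11 (0.973), 1700066M21Rik (0.968) and Scarb2 (0.968). Ihh was most like Add3 (0.953), the olfactory receptor Olfr552 (0.952), Fezf2 (0.95) and Slc38a6 (0.936). These correlations are descriptions over 9 samples that share the groups, among 9171 or 9172 genes, of which 160 had r above 0.9 with Mef2c, 124 with Panx3 and 21 with Ihh.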

How the data were processed

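Per the methods, the authors labelled RNA with Cy5, ran every sample on 2 arrays (Phalanx Mouse OneArray v2), applied median scaling in Rosetta Resolver and took the mean of both arrays. The deposited values are linear intensities of 26423 probes, from -8.27 to 70058, and values below 0 show that background was removed. No depth applies to arrays, and 3 samples per group limit the precision.

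Log2 of the intensities was taken without further normalization, after leaving out 1481 probes (5.60%) at or below 0 in any sample. One fit over 9 samples with a mean per group was made with limma 3.58.1 under R 4.3.3 (lmFit and eBayes with an intensity trend), adjusted by Benjamini-Hochberg over 24942 probes at 0.05. Figures were drawn in Python with matplotlib. One symbol was listed for 21876 probes and none for 4547. The authors called array genes by Rosetta Resolver's error-weighted test, which was not applied here. The methods' t-test named in this report is that of their general statistics section.

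Genes were named by a rule: all 10 genes by their brightest probe, list members that passed (otherwise at most 2 of smallest p), markers, and the 4 most similar genes for 3 genes. Genes that passed only under an alternative were named after their values were seen. Members and lists were chosen with earlier results of these data known. Alternatives were quantile, median and loess scaling, a filter on dim probes, a floor of 3.21, an offset of 36.0, only the 2 groups compared, a replicate block, the methods' t-test, the other Mef2c probe and each sample left out. The fit was tested on simulated data with independent noise per probe and no shift common to a sample. That test does not bear on the choice of scaling.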

Additional observations from a re-analysis of the deposited data

How the results depend on the processing

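The counts of the 8 genes and of all probes that passed moved with the processing. For stiff minus soft, 0 of 8 and 441 probes (337 higher, 104 lower) became 2 and 1169 (469 higher, 700 lower) after quantile normalization, 1 and 1480 (206 higher, 1274 lower) with median centring, 1 and 986 (421 higher, 565 lower) with loess scaling, 1 and 732 in the upper 50% of probes, 1 and 668 with an offset, 1 and 2373 with only the 2 groups, and 1 and 223 by the methods' t-test. For stiff minus normal, 1 of 8 and 2478 probes (1197 higher, 1281 lower) became 3 and 4074 after quantile normalization, 1 and 5561 (1725 higher, 3836 lower) with median centring, 3 and 3937 with loess scaling, 1 and 1112 with only the 2 groups, and 0 and 20 by the methods' t-test. For soft minus normal, 0 of 8 and 924 probes (123 higher, 801 lower) became 1 after quantile normalization (542 higher, 538 lower), while the split was 333 and 331 with median centring and 606 and 617 with loess scaling. There 540 probes passed with only the 2 groups and 6 by the methods' t-test. With 1 sample left out in turn, 0 to 1 of the 8 and 0 to 2377 probes passed for stiff minus soft, 0 to 2 and 541 to 4092 for stiff minus normal, and 0 and 138 to 1128 for soft minus normal. The causes were not tested.

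Same-numbered samples did not deviate together (r from -0.22 to 0.13 over 9 pairs), and 0 of 9 samples correlated best with their own number in both other groups. With the replicate number as a block 132 probes passed for stiff minus soft, 1558 for stiff minus normal and 308 for soft minus normal, and 0, 1 and 0 of the 8 genes did. Under this block Mgp (adjusted p = 0.0856 in limma) and Vegfa (0.0653) no longer passed for stiff minus soft, nor Hdac4 (0.0592), Vegfa (0.0564) and Tnfrsf11b (0.0604) for soft minus normal.

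Of the single-gene values under alternatives 388 kept their direction and side of the threshold, 16 newly passed, 4 no longer passed and 18 changed sign, and none of those 18 was past the threshold. For stiff minus soft these were Phospho1 (-0.015 with quantile, -0.13 with median and -0.012 with loess scaling), Alpl (-0.093 to 0.025 with 1 sample left out, above 0 without stiff or soft replicate 2) and Sp7 (-0.55 to 0.031, above 0 without stiff replicate 3 or soft replicate 1). For stiff minus normal they were Sp7 (-0.071 to 0.44, below 0 without stiff replicate 1), Phospho1 (-0.19 to 0.058, above 0 without stiff or normal replicate 3), Col10a1 (-0.33 to 0.23) and Alpl (-0.37 to 0.041), both above 0 without normal replicate 3. For soft minus normal they were Ibsp (0.091 with median centring, and -0.18 to 0.19 with 1 sample left out, above 0 without soft replicate 1 or 3 or normal replicate 3), Ihh (-0.053 to 0.24, below 0 without normal replicate 1) and Alpl (-0.33 to 0.075, above 0 without normal replicate 3). The filter on dim probes left 5 of the 8 genes. Signal over background limits Col10a1, Ibsp and Ihh, whose probes lay among those of olfactory receptors.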
